A study of Mus musculus with 4 samples.

Results

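Cyp3a25, Cyp3a59 and Cyp3a16 are cytochrome P450 genes of the Cyp3a subfamily, and all 3 had lower values in hypoxia than in normoxia in the pregnant mouse uterus, at 12.9-fold, 4.86-fold and 8.44-fold. They were taken as the rows with these 3 symbols in the authors' deposited uterus table, and are 3 of its 903 genes and 3 of the 1696 distinct genes listed in the uterus or the ovary. None of the 3 was listed in the ovary table (0 of its 854 genes).

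The study collected uterus and ovary of mice in early pregnancy, at embryonic day 3.5, when implantation is about to begin. The groups were uterus under hypoxia, uterus under normoxia, ovary under hypoxia and ovary under normoxia, and low oxygen was applied 72 hours after fertilization; the labels call the treatments Hypoxic and Ctrl. The sources used here name no strain, age or oxygen level. RNA from 3 samples was pooled into 1 library per group, so no spread between animals can be estimated and no value below has a replicate check. The design text does not say whether the 3 samples came from 3 animals. Genes appear in the tables where the log2 fold change was 2 or more in either direction, with no level, library total or p-value, so depth is unknown and the labelled tissue could not be checked against its markers. Neither table says whether hypoxia or normoxia was the numerator; positive values are read as higher in hypoxia, and every direction given here rests on that assumption.

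Cyp3a enzymes are haem proteins of the endoplasmic reticulum that oxidize drugs, steroids such as testosterone, and bile acids. In mice they are known mainly from liver and intestine, where the nuclear receptors PXR (Nr1i2) and CAR (Nr1i3) and the factor Hnf4a control their transcription. Cyp3a25 is expressed in mouse liver and intestine, Cyp3a16 is known as a form of fetal and newborn mouse liver, and Cyp3a11 is the main adult liver form.

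On GRCm38, the assembly also called mm10, the 3 genes lie on chromosome 5. Cyp3a25 (ENSMUSG00000029630.15) spans chr5:145977194-146009618 on the minus strand, Cyp3a59 (ENSMUSG00000061292.10) spans chr5:146079257-146113287 on the plus strand, and Cyp3a16 (ENSMUSG00000038656.5) spans chr5:145436309-145469723 on the minus strand. Each main transcript has 13 exons and is classed as protein coding. Cyp3a25 and Cyp3a59 point away from each other, with their starts 69.6 kb apart. Between Cyp3a16 and Cyp3a25 lie 507 kb that hold 4 other Cyp3a genes, Cyp3a41b, Cyp3a41a, Cyp3a44 and Cyp3a11, none of them listed in either tissue. Cyp3a57, at the other edge of the 768 kb cluster, and Cyp3a13, which lies 7.42 Mb away from it, were not listed either. An unlisted gene may have changed by less than 4-fold or have had too few reads, which the tables do not tell apart.

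**Figure D1:**
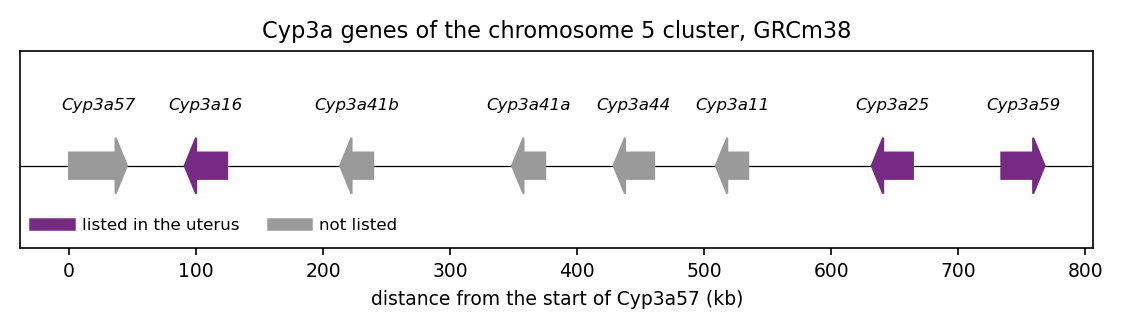
Map of the 8 Cyp3a genes of the chromosome 5 cluster, with distance from the start of Cyp3a57 in kb on the horizontal axis and arrows pointing in the direction of transcription. The 3 genes listed in the uterus are purple and the other genes grey; Cyp3a25 and Cyp3a59 are neighbours, and 4 unlisted genes separate them from Cyp3a16.

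The 250 bases before the RefSeq start of each gene (GRCm38.p6, gene strand, 5′ to 3′) are shown because they place the 3 genes in 2 sequence groups. Capitals mark AGGTCA, the core hexamer bound by many nuclear receptors, CAAAGTCCA, a motif of Hnf4a, and TATAA, the core of the TATA box, each on either strand. The motifs were chosen after the sequences were seen. Cyp3a25 lies at chr5:146009619-146009868 on the minus strand, Cyp3a59 at chr5:146079008-146079257 on the plus strand and Cyp3a16 at chr5:145469724-145469973 on the minus strand.
Cyp3a25: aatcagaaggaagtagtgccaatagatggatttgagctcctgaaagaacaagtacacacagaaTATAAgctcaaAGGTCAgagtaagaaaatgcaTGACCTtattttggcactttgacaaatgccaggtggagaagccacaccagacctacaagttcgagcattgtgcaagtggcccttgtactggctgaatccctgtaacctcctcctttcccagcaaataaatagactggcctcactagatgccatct
Cyp3a59: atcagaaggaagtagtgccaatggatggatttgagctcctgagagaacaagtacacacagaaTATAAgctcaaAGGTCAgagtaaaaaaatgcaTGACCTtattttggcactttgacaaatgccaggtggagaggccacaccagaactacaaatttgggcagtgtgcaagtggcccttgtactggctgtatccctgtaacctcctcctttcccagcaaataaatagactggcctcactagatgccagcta
Cyp3a16: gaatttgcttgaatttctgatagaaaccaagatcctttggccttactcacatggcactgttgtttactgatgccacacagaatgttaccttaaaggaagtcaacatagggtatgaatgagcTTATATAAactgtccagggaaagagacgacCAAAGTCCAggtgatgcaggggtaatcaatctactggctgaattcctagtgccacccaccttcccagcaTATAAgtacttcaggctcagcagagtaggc

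The upstream sequences of Cyp3a25 and Cyp3a59 were 94.8% identical to each other, while Cyp3a16 was 50% identical to Cyp3a25 and 49.8% to Cyp3a59. Cyp3a25 and Cyp3a59 each held AGGTCA on both strands, 176 to 171 and 155 to 150 bases before the start in Cyp3a25, and Cyp3a16 held none. Cyp3a16 held CAAAGTCCA 99 to 91 bases before its start, which the other 2 lacked. TATAA lay 30 to 26 bases before the start in Cyp3a16, where a further TATAA and its reverse complement overlap farther upstream, and 187 to 183 bases before it in Cyp3a25. These patterns were not particular to the listed genes. Unlisted Cyp3a57 held AGGTCA 2 times as well, and unlisted Cyp3a41a, Cyp3a41b and Cyp3a11 held CAAAGTCCA. Of 27025 RefSeq upstream sequences of the same length, 13.8% held AGGTCA, 0.381% CAAAGTCCA and 23.5% TATAA on either strand. The core letters of the hypoxia response element, ACGTG and GCGTG, were in none of the 9 Cyp3a sequences (0 of 9), against 16.6% and 28.2% of all. The 9 sequences include near copies, such as Cyp3a41a and Cyp3a41b at 99.6% identity, so they are not 9 separate cases. Nothing is read from this absence, and a role of any of these motifs was not tested.

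The coding sequences fell into the same groups. Cyp3a25 and Cyp3a59, each with 1509 coding bases, were 97.5% identical, and Cyp3a57 was the next closest gene to each, at 93.9% to Cyp3a25 and 94.2% to Cyp3a59. Cyp3a16, with 1512 coding bases, was 74.6% identical to Cyp3a25 and 74.3% to Cyp3a59. Its closest relative was unlisted Cyp3a11, at 92.8%, followed by Cyp3a41a at 92.7%, Cyp3a41b at 92.6% and Cyp3a44 at 92.4%. The 3 listed genes are therefore a close pair and a member of the other branch, and each branch also holds unlisted genes.

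**Figure D2:**
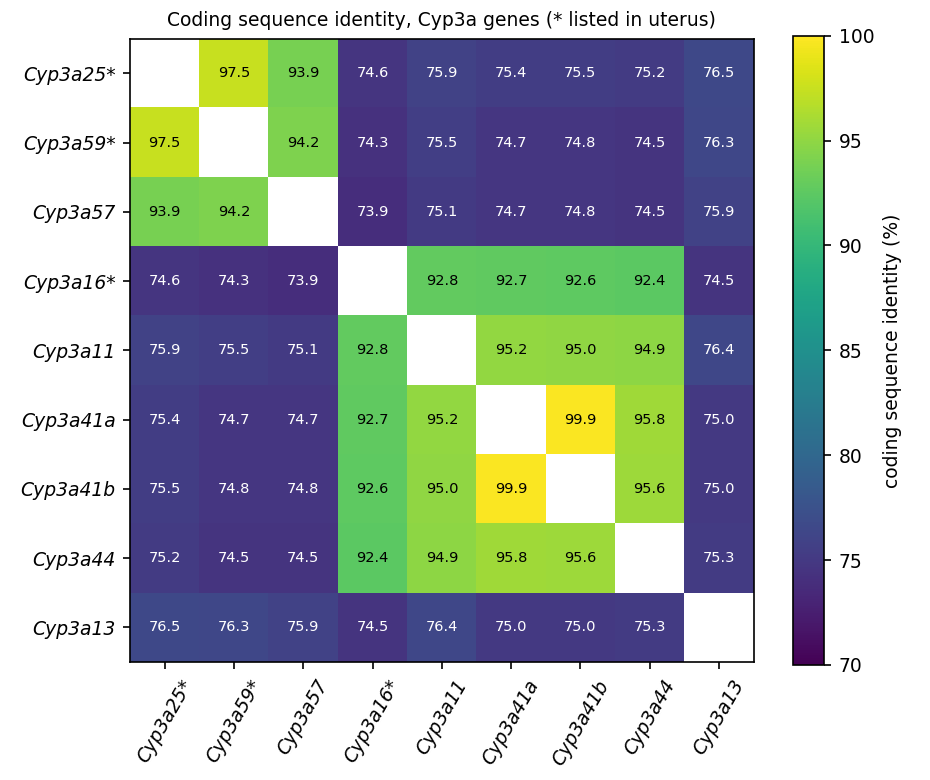
Coding sequence identity in percent between each pair of the 9 mouse Cyp3a genes, with genes on both axes and an asterisk on the 3 listed in the uterus. Cyp3a25 and Cyp3a59 form a group with Cyp3a57, and Cyp3a16 falls with Cyp3a11, Cyp3a41a, Cyp3a41b and Cyp3a44 at 92.4% to 92.8%.

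Close copies bear on the counts, because a read that matches several genes can be discarded or assigned to one of them, and no source used here gives the counting options. The share of stretches of the transcript found letter for letter in a transcript of another gene was therefore measured. With stretches of 50 bases it was 26.8% for Cyp3a25, 28.0% for Cyp3a59 and 10.7% for Cyp3a16. With 100 bases it was 6.05%, 5.61% and 0.123% for the same genes, and with 150 bases 0.702%, 0.706% and 0 (0%). The sharing partners of Cyp3a25 were Cyp3a59 and Cyp3a57, and at 100 bases Cyp3a59 alone. For the unlisted copies Cyp3a41a and Cyp3a41b the share was 98.6% and 93.5% at 50 bases, and 82.9% and 82.7% at 150 bases. No source used here gives the read length, so which of these lengths applies is unknown and the values of all Cyp3a genes are uncertain to that extent.

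By the inferred counts below, Cyp3a59 carried most of the reads behind the 3 values. After division by a factor shared by all genes of the table, 0.995, each deposited ratio was a ratio of whole numbers, called terms here. The factor was set by reading the most common log2 fold change as terms of 1 and 4. That is an assumption, and another factor would give other terms. The terms are read as read counts with 1 added, an inference that no source states; a factor common to both terms is lost, so the true counts can be larger. For Cyp3a59 the terms were 142 in hypoxia and 687 in normoxia, or 141 and 686 reads by this reading. The 95% counting interval was 119 to 166 reads in the hypoxia library and 636 to 739 in the normoxia library. The ratio of the terms, times the shared factor, is the log2 fold change of -2.28 in the authors' deposited table. Its exact Clopper-Pearson counting interval, taken from the inferred reads, was -2.56 to -2.03. The hypoxia library was the lower one and the library intervals did not overlap. Such intervals, here and below, cover counting error only and say nothing about the spread between mice.

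Cyp3a25 had the largest change of the 3 genes. Its terms were 9 in hypoxia and 116 in normoxia, or 8 reads with an interval of 3.45 to 15.8 against 115 reads with an interval of 94.9 to 138. The authors' deposited table gave it -3.69, and the counting interval was -5.10 to -2.83. The normoxia library was 12.9-fold above the hypoxia library, and the counting interval of that fold was 7.09 to 34.3.

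Cyp3a16 rested on the fewest inferred reads. Its terms were 5 in hypoxia and 42 in normoxia, or 4 reads with an interval of 1.09 to 10.2 against 41 reads with an interval of 29.4 to 55.6. The authors' deposited table gave it -3.08, and the counting interval of -5.31 to -1.90 reached past the listing threshold of -2. Hypoxia was the lower library for this gene too, with no overlap of the library intervals. With a pseudocount of 5 in place of 1 the log2 fold change was -2.36.

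**Figure D3:**
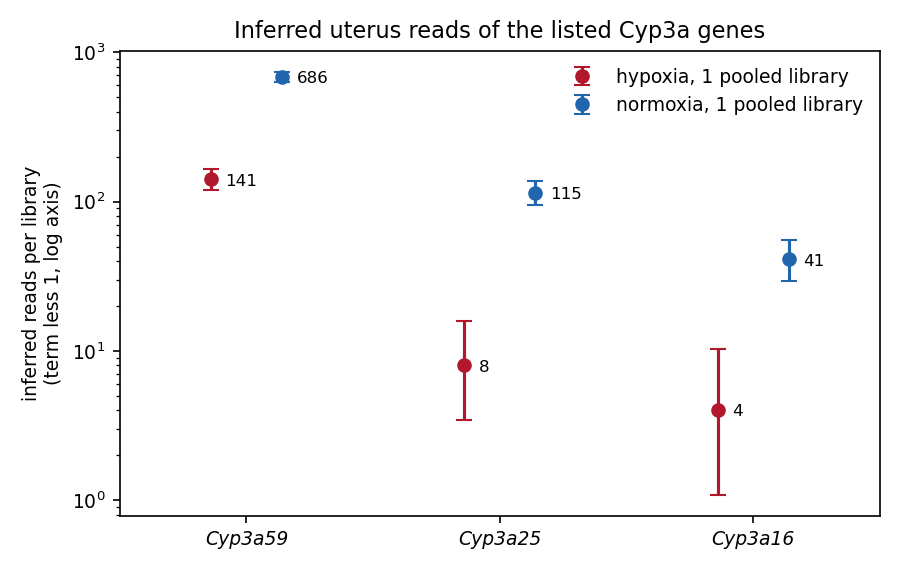
Inferred reads of Cyp3a59, Cyp3a25 and Cyp3a16 in the uterus, on a log axis, with hypoxia in red to the left and normoxia in blue to the right, 1 pooled library each. Bars are exact 95% Poisson intervals of the count; the hypoxia points, at 141, 8 and 4 reads, lie below the normoxia points, at 686, 115 and 41 reads.

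The members were chosen from this contrast, so these values are a description and no test was made of them. Among themselves, Cyp3a25 and Cyp3a59 had counting intervals of the log2 fold change that did not overlap, with Cyp3a25 lower by a difference of -1.41, although their coding sequences are nearly the same. The interval of Cyp3a16 overlapped both. Cyp3a59, the member nearest to the listing threshold, stood at -2.28 in the authors' deposited table, while no values are given for the unlisted genes.

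Per kilobase of transcript, the Cyp3a59 level was 70.9 inferred reads in hypoxia and 345 in normoxia. The Cyp3a25 level per kilobase was 4 in hypoxia and 57.5 in normoxia, and that of Cyp3a16 was 2.31 in hypoxia and 23.7 in normoxia. By these inferred reads the order of the levels, Cyp3a59 above Cyp3a25 above Cyp3a16, was the same in both libraries. A common factor lost from the terms could differ between genes and change this order. In hypoxia the lower 2 genes, at 8 and 4 reads, had overlapping counting intervals.

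Summed over the 3 genes, 153 inferred reads in hypoxia stood against 842 in normoxia, a log2 fold change of -2.47 with a counting interval of -2.73 to -2.22. Cyp3a59 made up 92.2% of the sum in hypoxia (exact binomial interval 86.7% to 95.9%) and 81.5% in normoxia (78.7% to 84.0%). Cyp3a25 made up 5.23% in hypoxia (2.28% to 10.04%) and 13.7% in normoxia (11.4% to 16.2%). Cyp3a16 made up 2.61% in hypoxia (0.717% to 6.56%) and 4.87% in normoxia (3.52% to 6.55%). By this reading the share of Cyp3a25 was the lower in hypoxia and that of Cyp3a59 the higher, while the intervals of Cyp3a16 overlapped. The sum, the shares and their intervals take any common factor lost from the terms to be the same for all 3 genes. That cannot be checked, and other factors would change their sizes. In pooled tissue, fewer cells that express these genes and less RNA per cell cannot be told apart.

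Most genes of the uterus table had far smaller terms. A sum of terms is a least value, because a factor common to both terms is lost, so places by this sum are not places by reads. The median sum of terms over the 903 genes was 8, and 66.9% of the genes had a term of 1. The sum was 829 for Cyp3a59, 125 for Cyp3a25 and 47 for Cyp3a16, above those of 98.2%, 93.5% and 88.2% of the listed genes. Among the 412 genes with lower values Cyp3a59 stood 7 from the top by the sum of terms, Cyp3a25 stood 24 and Cyp3a16 stood 41. By size of the change among the same genes Cyp3a25 stood 17, Cyp3a16 stood 40 and Cyp3a59 stood 214. Among the 72 of them whose terms summed to at least 20, the places by size of change were 7 for Cyp3a25, 11 for Cyp3a16 and 43 for Cyp3a59. The counting interval excluded a ratio of 1 for all 3 genes, and for 54.2% of the listed uterus genes. It lay wholly past 4-fold for Cyp3a25 and Cyp3a59, and for 5.98% of the listed uterus genes. Every listed gene had passed a 4-fold threshold in this contrast and the 3 were chosen among them, so nothing is read from these shares.

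**Figure D4:**
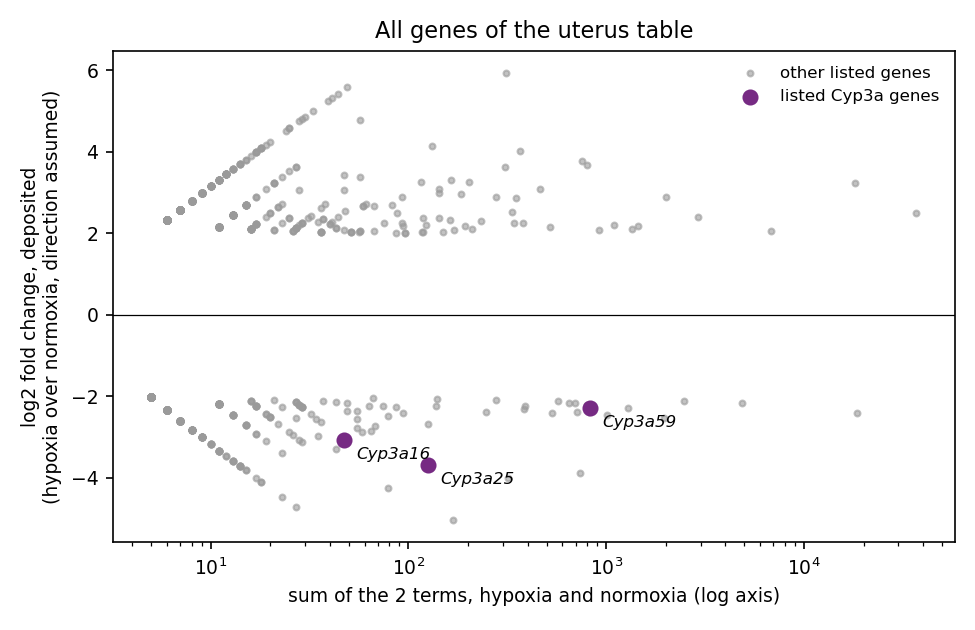
Deposited log2 fold change of every gene of the uterus table against the sum of its terms in both libraries, on a log axis; the lines of points at the left edge are genes with a term of 1. Cyp3a16, Cyp3a25 and Cyp3a59, in purple, lie among the lower genes with sums of 47, 125 and 829, far above the median sum of 8.

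Of the 9 protein-coding Cyp3a genes 3 were listed in the uterus, all lower, where 1.53% of annotated protein-coding genes were listed and 0.658% were listed as lower. Of the protein-coding genes listed in the uterus, 43.0% were lower. The annotation includes genes with no reads in the uterus, and the 3 genes were chosen from this table, so nothing is read from that comparison. In the ovary 0 of the 9 were listed, where 1.01% of annotated protein-coding genes were. Of the 91 other protein-coding P450 genes, 4 were listed in the uterus (4.40%), 1 lower and 3 higher, where 0.872% of annotated protein-coding genes were listed as higher. In the ovary 3 P450 genes were listed, 2 lower and 1 higher, and no P450 gene was listed in both tissues (0 genes). Over all genes the 903 and 854 listed made up 1696 distinct genes, so few were shared. Nothing is read from the lack of shared P450 genes.

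The other lower P450 gene of the uterus was Cyp8b1, the sterol 12-alpha-hydroxylase of bile acid synthesis. It had terms of 5 in hypoxia and 27 in normoxia, and -2.44 in the authors' deposited table with a counting interval of -4.69 to -1.18. Cyp2e1, which oxidizes ethanol and other small molecules, had the highest sum of terms of these genes, 1187 in hypoxia and 259 in normoxia. The authors' deposited table gave it 2.19, with a counting interval of 2.00 to 2.39. Cyp26a1, which degrades retinoic acid, had terms of 313 in hypoxia and 65 in normoxia, and 2.26 in the authors' deposited table with an interval of 1.89 to 2.69. Cyp4f40, of a family of fatty acid hydroxylases, had terms of 5 and 1, and its interval included a ratio of 1. Cyp2e1 and Cyp26a1 thus lay in the direction opposite to that of the 3 Cyp3a genes.

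**Figure D5:**
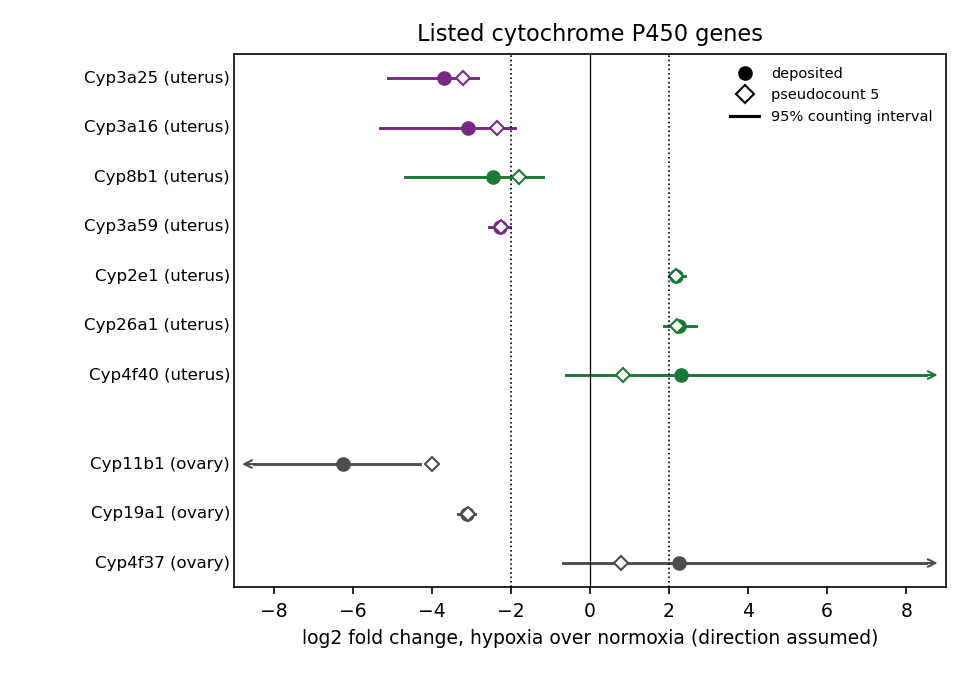
Log2 fold change of the 10 listed P450 genes, uterus above and ovary below, with the deposited value as a filled circle, the value with a pseudocount of 5 as an open diamond and the 95% counting interval as a line; arrows mark open ends and dotted lines the threshold of 2 in each direction. The 3 Cyp3a genes, in purple, lie at -3.69, -3.08 and -2.28, while Cyp2e1, Cyp26a1 and Cyp4f40 lie on the positive side.

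In the ovary, the listed P450 genes act in steroid synthesis or belong to the Cyp4f family. Cyp19a1, the aromatase, had terms of 207 in hypoxia and 1700 in normoxia and -3.11 in the authors' deposited table. Cyp11b1, the steroid 11-beta-hydroxylase, had terms of 1 in hypoxia and 72 in normoxia, so the -6.24 of the authors' deposited table depends on the added 1. Cyp4f37 had terms of 5 and 1, with an interval that included a ratio of 1.

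Other genes of the pathway were counted beside the shares of annotated protein-coding genes listed, 1.53% for the uterus and 1.01% for the ovary, and counts this small are read as neither above nor below them. Of 15 genes that regulate or serve Cyp3a enzymes, among them Nr1i2, Nr1i3, Rxra and Por, the reductase that passes electrons to P450 enzymes, 1 was listed in the uterus, Hnf4a, on terms of 21 in hypoxia and 5 in normoxia. It was higher, at 2.06 in the authors' deposited table, the direction opposite to that of the Cyp3a genes. Of 32 other genes known as targets of PXR or CAR, 0 were listed in either tissue, and at the shares above a list of this length would often hold none. Of 45 other xenobiotic P450 genes, 1 was listed in the uterus, Cyp2e1. Of 49 genes of a list of conjugation and transport, 4 were listed for the uterus, with 3 of them higher and 1 lower. That list also holds enzymes of other kinds, here Fmo4 and Ces1g. Fmo4, a flavin-containing monooxygenase, had 2.36 in the authors' deposited table, with terms of 31 in hypoxia and 6 in normoxia, and Ugt2b34, a glucuronosyltransferase, had 2.25 on terms of 62 and 13 in the same order. Ugt1a6b and the carboxylesterase gene Ces1g, on terms of 5 to 1 and 1 to 4, had intervals that included a ratio of 1. In the ovary 2 of the 49 were listed, both higher, with Slco1a1, an organic anion transporter, at 2.06 and the sulfotransferase gene Sult1d1 at 2.74 in the authors' deposited table. Slco1a1 had terms of 188 in hypoxia and 43 in normoxia. Sult1d1 had terms of 7 and 1 in the same order, and 1.07 with a pseudocount of 5.

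A list of 34 genes of steroid synthesis and inactivation also held Cyp26a1, which acts on retinoic acid. Of these 34 genes 2 were listed in the uterus, both higher. Of annotated protein-coding genes 1.53% were listed and 0.872% were listed as higher. Srd5a2, a steroid 5-alpha-reductase, had 2.69 in the authors' deposited table, with terms of 13 in hypoxia and 2 in normoxia. The other was Cyp26a1, so Srd5a2 was the only steroid gene of the list that was listed in the uterus. In the ovary 3 were listed, all lower, where 1.01% of annotated protein-coding genes were listed and 0.558% were listed as lower. They were Cyp19a1, Cyp11b1 and the estrogen sulfotransferase gene Sult1e1 at -2.07 in the authors' deposited table, with terms of 1 to 4.

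Since Cyp3a genes are known from liver and intestine, markers of those organs were examined beside them. Of 25 hepatocyte markers, 3 were listed in the uterus, all lower like the Cyp3a genes, where 1.53% of annotated protein-coding genes were listed and 0.658% were listed as lower. They had a summed 16 inferred reads in hypoxia and 89 in normoxia. Each of them had passed the 4-fold threshold as lower, so the direction of this sum was fixed by the listing. The sum also takes any common factor lost from the terms to be the same for all 3, and nothing is read from it. Serpina1b, an alpha-1-antitrypsin gene, had -2.24 in the authors' deposited table, with terms of 13 in hypoxia and 61 in normoxia. The others were Cyp8b1 and Ahsg, which encodes fetuin A, on terms of 1 to 4 with an interval that included a ratio of 1. The other 22 markers, albumin (Alb) among them, were not listed and have no values. Of 22 enterocyte markers, 2 were listed, the intestinal homeobox gene Isx, lower on terms of 1 in hypoxia and 17 in normoxia, and the guanylin gene Guca2a, higher on terms of 5 to 1. Of 15 kidney tubule markers, 2 were listed. Cdh16, a cadherin of kidney epithelium, was higher at 3.68 in the authors' deposited table, with terms of 745 in hypoxia and 58 in normoxia, and Slc5a2 was lower on terms of 1 to 4. The counting intervals of Guca2a and Slc5a2 included a ratio of 1. Of 15 uterine epithelium markers, 2 were listed, with Ltf higher at 3.23 and Spink1 lower at -2.12 in the authors' deposited table. The part that other cells have in the Cyp3a values was not tested. In the ovary 1 of the 25 hepatocyte markers was listed, Ttr, at -2.43 in the authors' deposited table. Of annotated protein-coding genes 1.01% were listed in the ovary and 0.558% were listed as lower. Of the 22 enterocyte markers the ovary table held Guca2b, lower on terms of 1 to 5, and Fabp2, higher on terms of 5 to 1. Of the 15 kidney tubule markers it held Slc12a1 and Slc34a1, lower on terms of 1 to 5 and 1 to 4. The counting intervals of these 4 genes included a ratio of 1.

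Within 1 Mb on either side of the 3 genes the annotation holds 81 genes. In the uterus the 3 Cyp3a genes were the listed ones, and no other gene of that stretch was listed (0 genes). Over the whole annotation 1.63% of genes were listed in the uterus, so a stretch of this size would hold few listed genes in any case. In the ovary 1 was listed, Gpr12, on terms of 1 to 4, where 1.54% of all annotated genes were listed.

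The protein-coding uterus genes with values nearest to each member were taken by the absolute difference in the deposited log2 fold change, a likeness over 1 contrast of 2 libraries. For Cyp3a59 they were Has3, a hyaluronan synthase gene, Lingo3 and S100a3, at -2.28, -2.27 and -2.27 in the authors' deposited table. Has3 also had terms of like size, 221 in hypoxia and 1072 in normoxia, while Lingo3 and S100a3 had 5 and 24. For Cyp3a25 they included Doxl1 and Ly6g6f, both at -3.71 in the authors' deposited table and both on terms of 1 to 13. For Cyp3a16 they were Nkx6-1, Tmprss11b and Calb2, at -3.09, -3.12 and -3.01 in the authors' deposited table. Their terms were 2 to 17, 3 to 26 and 1 to 8.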

How the data were processed

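RNA of uterus and ovary from mice under hypoxia or normoxia was sequenced as 4 pooled libraries. Per the labels' protocols, polyadenylated RNA was captured on beads and directional libraries were built. Tools in the submitters' processing notes are DESeq2 2.11.40.7, HTSeq 0.9.1, HISAT2 2.2.1 and FastQC 0.73, and the build is mm10. The authors deposited, per the file headers, a log2 fold change per gene with its chromosome and class, for genes at 2 or more in either direction; values near that edge were selected to pass it.

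From these values the whole-number terms were recovered by continued fractions, within a relative tolerance of 5e-14, after division by the shared factor (0.995 in the uterus, 0.952 in the ovary). On simulated counts built with an added 1, the step returned the pairs in lowest terms. That run assumes the added 1 and checks neither it nor the true counts. No test between groups was made. Intervals of 95% are exact Clopper-Pearson for ratios and shares and exact Poisson for single libraries. GENCODE M21 (GRCm38, 55536 genes) gave positions, and its transcripts gave the coding sequences, aligned globally (match 1, mismatch -1, gap opening 5, extension 0.5). Upstream sequences are from RefSeq (GRCm38.p6), matched by symbol for all 9 Cyp3a genes. Software was Python 3.11.15, NumPy 2.4.6, pandas 2.3.3, SciPy 1.17.1, Biopython 1.88 and Matplotlib 3.10.9.

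The members and the 10 gene lists were chosen with earlier results of these data known. In the enterocyte, xenobiotic P450, steroid and PXR or CAR target lists 1 symbol each was not in the annotation. Named genes were all Cyp3a genes, all listed P450 genes, up to 4 listed genes per list and tissue, listed genes within 1 Mb of a member, and the 3 protein-coding genes nearest in value to each member, of which 1 is not reported here. Alternatives were another pseudocount, no shared factor, other readings of the terms, a threshold of 3 and a minimum sum of terms of 20.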

Additional observations from a re-analysis of the deposited data

Results flagged for a closer look

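Calb2, the calretinin gene, named above for its nearness in value to Cyp3a16, was listed in both tissues with opposite signs. The authors' deposited tables give it -3.01 for uterus and 3.51 for ovary. The terms were 1 in hypoxia and 8 in normoxia in the uterus, and 12 in hypoxia and 1 in normoxia in the ovary. The difference between the tissues was not tested.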

How the results depend on the processing

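At a threshold of 3 the listed Cyp3a genes of the uterus were 2, without Cyp3a59. The pseudocount and the shared factor cannot turn the sign of these ratios and bear on their size only. With a pseudocount of 5 the log2 fold change was -3.21 for Cyp3a25, -2.36 for Cyp3a16 and -2.25 for Cyp3a59; with 0.5 it was -3.77, -3.21 and -2.29, and with no shared factor -3.69, -3.07 and -2.27, in the same order. The upper end of the Cyp3a16 interval was -1.90, -1.74 with the terms as counts and -2.22 with the terms doubled, so whether it reached the threshold depends on the reading of the terms. At a threshold of 3 the P450 genes of the uterus were 2 lower and 0 higher, and the higher ones of the ovary 0. At that threshold all lists together held 3 lower and 2 higher genes for the uterus, and 2 lower and 0 higher for the ovary. With terms summing to at least 20 the higher P450 genes of the ovary were 0, and all lists together held 6 lower uterus genes and 3 lower and 1 higher ovary genes. Without the filter the uterus had 10 lower and 10 higher, and the ovary 7 lower and 3 higher. The lower uterus totals count the Cyp3a genes themselves. At the threshold of 3 the lower ones were Cyp3a25, Cyp3a16 and Isx, and all 3 members are among the 10 and the 6. Fewer genes pass either setting by its construction. No paired analysis was possible because each group is 1 pooled library, and for the same reason no replicate could be left out. Depth limits Cyp3a16 and Cyp3a25 most, at 4 and 8 inferred reads in hypoxia.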
